A study of Mus musculus with 8 samples.

Results

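The ErbB receptors Egfr, Erbb2 and Erbb3, the ligands Hbegf, Areg, Tgfa, Btc, Ereg and Epgn, and the receptor inhibitor Errfi1 were followed in mouse liver ductal cells as they entered organoid culture. These 10 genes were chosen by symbol and matched to Ensembl identifiers through GENCODE M21, out of 47729 identifiers in the deposited table. All 10 were found, each under 1 identifier. The cells were sorted by FACS for EpCAM, an adhesion protein of bile duct epithelium, from the healthy adult liver of male mice of strain C57/B6. RNA was read from 8 low-input libraries, namely 2 of freshly isolated cells (0 h), 2 of cells kept 12 h in Matrigel with organoid medium, 1 of such cells at 24 h, 1 titled 48h, and 2 of organoids at 6 days. The 48h-titled library has 24 h as its time point in its other labels, so it is called here by its title and treated as a group of its own. All groups share strain, sex and sort, and the labels do not say which libraries came from the same animal or whether animals were pooled. The p-values therefore measure only how far these libraries differ among themselves, which may be technical.

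ErbB receptors are tyrosine kinases that pair up when a ligand binds, and their kinase activity feeds the ERK and PI3K pathways. Egfr binds all 6 ligands listed here, Erbb2 has no ligand of its own and acts as a partner, and Erbb3 binds neuregulins and signals mainly through its partners. The ligands are made as membrane-anchored precursors and are released by metalloproteases of the ADAM family. Errfi1, also called Mig6, binds the kinase domain of active receptors, blocks them and is itself induced by their signalling. Organoid medium contains EGF, so the RNA of the cells' own ligands is only a part of what the receptors meet.

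The values are RPKM, read numbers corrected for the length of the gene and the depth of the library, as the authors deposited them, so the levels of different genes can be set side by side. The values correspond to between 13833303 and 28468974 effective reads per library, and the limit of 3 reads that goes with a count of 0 came to 0.0527 to 0.108 RPKM for a 2 kb gene. The 24 h library stood apart, with 8814 genes at 1 RPKM or more against 10605 to 11263 in the other 7. All 10 ductal markers looked for, among them Epcam, Krt19 and Sox9, were at 1 RPKM or more in every library. Their summed level was between 16020 and 22980 RPKM in the 6 cultured libraries, against 31050 and 34780 RPKM in fresh cells. The summed level of 10 hepatocyte markers was between 17.4 and 157 RPKM in the 6 cultured libraries, against 843 and 896 RPKM in fresh cells. Sums of 5 mesothelial markers were between 0 and 5.78 RPKM in culture, against 25.7 and 35.7 RPKM in fresh cells. Those of 10 mesenchymal markers were between 0.125 and 3.03 RPKM in culture, against 14.7 and 4.37 RPKM in fresh cells, and those of 8 endothelial markers between 0.0129 and 2.17 RPKM, against 3.38 and 4.08 RPKM. The immune sum, over 10 markers, was between 4.88 and 27.2 RPKM in culture, against 29.8 and 20.6 RPKM in fresh cells. Of the hepatocyte markers 9 of 10 were at 1 RPKM or more in each fresh library and between 2 and 6 in the cultured ones, where Cyp3a11 and Cps1 were at 0 throughout. The T cell marker Cd3e was at 0 in all 8 libraries. The part of these other cells in the changes from fresh cells given below was not tested. In bulk RNA, fewer cells of a type and less RNA per cell cannot be told apart.

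The ligand genes Epgn, Ereg, Areg and Btc lie together on chromosome 5, in that order, within 375531 bases of GRCm38 (chr5:91027464-91402994). No annotated gene lies in the 39406 bases between Epgn and Ereg or in the 45952 bases between Ereg and Areg, and the 208828 bases between Areg and Btc hold 2 annotated genes, neither protein-coding. Hbegf (ENSMUSG00000024486) lies at chr18:36504927-36515805, Tgfa at chr6:86195223-86275719 and Errfi1 (ENSMUSG00000028967) at chr4:150853919-150868892. Egfr and Erbb2 are on chromosome 11, at chr11:16752203-16918158 and chr11:98412470-98437716, and Erbb3 is at chr10:128567523-128589652. All are annotated as protein-coding.

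RefSeq promoter windows on GRCm38.p6 were used for 7 of the 10 members, namely Areg, Btc, Egfr, Epgn, Erbb2, Errfi1 and Tgfa. The statements on motifs do not cover Hbegf, Ereg or Erbb3. In the 250 bases before each start, 3 motifs were searched on both strands, TGACGTCA (the cyclic AMP response element, CRE), TGANTCA (AP-1) and GGAATG (TEAD). The CRE was found once before Areg, with its first base at position -61 from the start, and once before the downstream of the 2 Errfi1 starts, at -51. Of all 32851 windows in the table, 1.55% held it. GGAATG stood before Erbb2, at -88, and its reverse complement before the upstream Errfi1 start, at -65, in a set where 12.6% of windows held either. TGANTCA, which 6.75% of windows held, was in none of the members' windows. The upstream Errfi1 window is not shown. The other windows with these matches are given below, with the matches in capitals, which do not overlap each other. All are on the plus strand, written 5′ to 3′, and a match describes letters and not a bound site.

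Areg, chr5:91139349-91139598: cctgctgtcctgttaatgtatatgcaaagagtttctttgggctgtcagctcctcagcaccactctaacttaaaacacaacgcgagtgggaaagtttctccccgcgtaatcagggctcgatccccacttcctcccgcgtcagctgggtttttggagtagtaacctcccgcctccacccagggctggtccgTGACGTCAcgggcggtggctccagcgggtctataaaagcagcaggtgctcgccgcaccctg
Errfi1, downstream start, chr4:150854820-150855069: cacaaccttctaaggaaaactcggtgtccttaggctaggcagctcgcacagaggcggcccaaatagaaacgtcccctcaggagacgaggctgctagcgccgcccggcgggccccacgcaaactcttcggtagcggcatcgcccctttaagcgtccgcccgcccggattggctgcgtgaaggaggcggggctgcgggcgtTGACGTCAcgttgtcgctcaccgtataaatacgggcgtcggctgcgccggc
Erbb2, chr11:98412234-98412483: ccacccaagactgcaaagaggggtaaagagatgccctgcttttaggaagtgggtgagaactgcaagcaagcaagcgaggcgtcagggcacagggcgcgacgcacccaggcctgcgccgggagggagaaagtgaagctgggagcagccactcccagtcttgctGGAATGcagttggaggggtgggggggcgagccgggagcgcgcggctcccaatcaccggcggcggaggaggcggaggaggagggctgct

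Hbegf, the heparin-binding ligand of Egfr, gave most of the ligand RNA in fresh cells, and its share of that RNA was smaller in all 6 cultured libraries. Its level was 587 and 827 RPKM in the fresh libraries, 188 and 217 RPKM at 12 h, 159 RPKM at 24 h, 94.3 RPKM in the 48h-titled library and 39.8 and 50.5 RPKM in the organoids. The groups did not overlap, and in the order given each group was below all those before it. The place of the 48h-titled library after the 24 h one rests on its title, and each of them is 1 library. Among genes at 1 RPKM or more, Hbegf was in place 1509 and 1382 from the top in the organoids, against place 65 and 46 in the fresh libraries. The fresh values rest on about 43261 and 113800 effective reads, so counting error is small beside the spread between libraries.

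Hbegf fell at 12 h to 203 ± 20.6 RPKM, against 707 ± 170 RPKM in fresh cells (SD, n = 2 each). In a linear model of log2(RPKM + 1) across all genes (limma, Benjamini-Hochberg adjustment), its log2 change was −1.78 (SE 0.34, 95% interval −2.60 to −0.96, adjusted p = 0.0367). At 6 days it fell to 45.1 ± 7.63 RPKM, 15.7-fold below fresh cells, with a log2 change of −3.93 (SE 0.34, 95% interval −4.75 to −3.11; limma adjusted p = 0.00616). It also fell 4.49-fold in organoids relative to 12 h cultures, by 2.15 on the log2 scale (SE 0.34; limma adjusted p = 0.0391). Each pair of these comparisons shares 2 libraries, so they are not independent of each other.

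Leaving out a library leaves its group with 1, which is then assumed to vary like the other groups. In most such fits few or no genes of the whole table passed, but leaving out organoid replicate 2 did not lower their number. At 12 h 0 of the 12900 genes passed without fresh replicate 1, fresh replicate 2 or 12 h replicate 1, and 94 without 12 h replicate 2. In organoids against fresh cells 0 passed without either fresh library and 117 without organoid replicate 1. In organoids against 12 h cultures 0 passed in 5 of the 6 fits and 321 without organoid replicate 2. A call lost in a fit with 0 therefore says nothing of the single gene, here and for the genes below. For Hbegf at 12 h the adjusted p was 0.172, 0.266, 0.111 and 0.0869 without fresh replicate 1, fresh replicate 2, 12 h replicate 1 and 12 h replicate 2, with log2 changes between −2.03 and −1.53. That call also ended with no filter on low genes (0.0721) and without a trend in the variance (0.0547). Between organoids and fresh cells the call ended without either fresh library (adjusted p = 0.0662 without replicate 1 and 0.0589 without replicate 2). Between organoids and 12 h cultures it ended whichever of the 6 replicated libraries was left out, with adjusted p between 0.0518 and 0.177 and log2 changes between −2.32 and −1.98. It ended too with no filter (0.118), with only those groups fitted (0.186) and without a trend (0.0533).

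**Figure D1:**
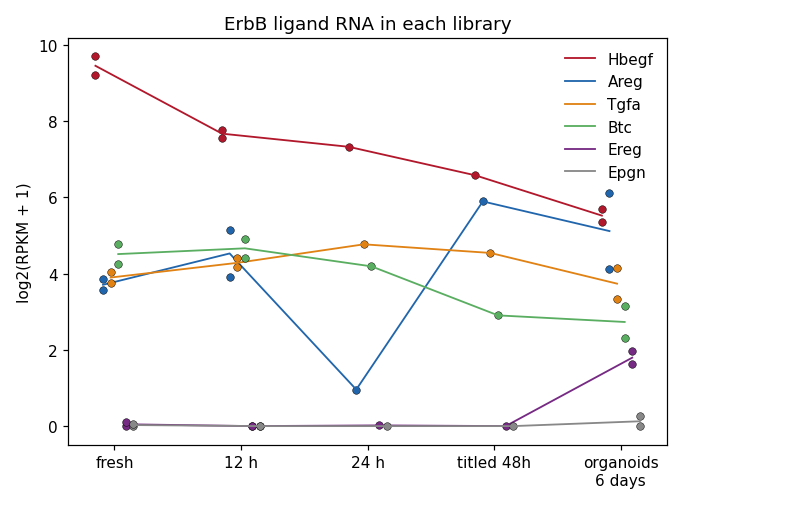
RNA of the 6 ligands as log2(RPKM + 1) in each library, from fresh cells to organoids. Points are libraries and lines join group means of the log values, with Hbegf at 39.8 and 50.5 RPKM in organoids, against 587 and 827 RPKM in fresh cells, while Ereg is near 0 in all libraries but the organoids.

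Areg, amphiregulin, a ligand with lower affinity for Egfr, was the main rival of Hbegf in the 48h-titled library and the organoids. Its level was 13.4 and 10.8 RPKM in fresh cells, 34.5 and 13.9 RPKM at 12 h, 0.943 RPKM at 24 h, 58.3 RPKM in the 48h-titled library and 16.4 and 67.9 RPKM in the organoids. Both organoid libraries were above both fresh ones, and the organoid libraries lay far apart. The 24 h value rests on 22 reads, the fewest of the series, and that library also had the fewest genes detected. The change of Areg did not pass in any comparison. It was 1.41 between organoids and fresh cells on the log2 scale (SE 0.73, 95% interval −0.33 to 3.15; limma adjusted p = 0.251) and 0.82 between 12 h and fresh cells (SE 0.73, 95% interval −0.92 to 2.56; adjusted p = 0.522).

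Tgfa, transforming growth factor alpha, another Egfr ligand, was between 9.10 and 26.2 RPKM in all libraries. It was at 12.4 and 15.6 RPKM in fresh cells, 20.1 and 16.9 RPKM at 12 h, 26.2 RPKM at 24 h, 22.3 RPKM in the 48h-titled library and 9.10 and 16.5 RPKM in the organoids. The organoid and fresh values overlapped (log2 change −0.16, 95% interval −1.15 to 0.83; limma adjusted p = 0.827). The interval covers changes in both directions, so a stable level is not shown. The opposite-strand gene Gm43917 shares 118 exon bases with Tgfa and was at most at 0.252 RPKM.

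Btc, betacellulin, which binds both Egfr and Erbb4, was lower in the 48h-titled library and the organoids. Its level was 26.4 and 17.9 RPKM in fresh cells, 20.4 and 28.9 RPKM at 12 h, 17.2 RPKM at 24 h, 6.48 RPKM in the 48h-titled library and 3.97 and 7.86 RPKM in the organoids. Every value of the 48h-titled library and the organoids was below every value of the fresh, 12 h and 24 h libraries. The 48h-titled library is itself a 24 h one by its other labels. Organoids stood at 5.91 ± 2.75 RPKM against 22.2 ± 6.03 RPKM in fresh cells (SD, n = 2 each). The log2 change of −1.78 (SE 0.46, 95% interval −2.88 to −0.68) missed the threshold (limma adjusted p = 0.0571). It passed when each library was centred on its median (adjusted p = 0.0284), after quantile normalization (0.0223), and in a test limited to genes averaging 5 RPKM or more (0.0414). It missed with a pseudocount of 0.1 RPKM (0.0648), with no filter (0.114) and with only the groups compared (0.066). The same held without a trend (0.0638) and with the replicate block (0.0588). Leaving out 1 library gave log2 changes between −2.20 and −1.36. Against 12 h cultures the log2 change of −1.93 did not pass either (SE 0.46; limma adjusted p = 0.0875).

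Ereg, epiregulin, a ligand of Egfr and Erbb4, was read in the organoids at 2.08 and 2.90 RPKM, from 119 and 242 reads. The fresh libraries had 0 and 0.0681 RPKM, from 0 and 8 reads, and it was listed at 0 in both 12 h libraries and in the 48h-titled library, with 1 read at 24 h. Organoids were at least 73.2-fold higher than 12 h cultures, against a floor of 3 reads per library. Ereg met the expression filter only through the organoids, where it is high, so its passing (limma adjusted p = 0.02 against fresh cells and 0.0395 against 12 h) adds little to these levels. The first call ended without fresh replicate 1 (0.117), fresh replicate 2 (0.108) or organoid replicate 1 (0.0512), and the second without any replicated library but organoid replicate 2 (0.0603 to 0.177). The second also ended with no filter (0.0918), with only the groups compared (0.186), without a trend (0.0642) and with the replicate number as a block (0.0661). The antisense gene Gm19610 overlaps Ereg by 141 exon bases, 3.42% of its exon length, and was at 2.84 and 2.06 RPKM in the organoids and at 0 in the other 6 libraries. The sources used here do not say whether reads were counted by strand, so reads of the pair cannot be told apart in that stretch. Epgn, epigen, the fourth gene of the chromosome 5 group, had 7 reads in organoid replicate 2, 2 reads in fresh replicate 2 and 0 in the other 6 libraries, and was not tested.

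The make-up of the ligand RNA, taken as each gene's share of the summed RPKM of the 6 ligands, does not depend on the scaling of a library. Hbegf made up 91.8% and 94.9% of the sum in fresh replicates 1 and 2, 71.5% and 78.4% at 12 h, 78.2% at 24 h, 52.0% in the 48h-titled library and 55.8% and 34.6% in the organoids. It held the first place in 7 of the 8 libraries. In organoid replicate 2 Areg led with 46.5% of the sum, and in organoid replicate 1 it was second with 23.0%. The shares do depend on the gene lengths used, and the lead of Areg rests on them. In organoid replicate 2 Hbegf had about 4940 effective reads and Areg 1669, over annotated exon lengths of 4834 and 1215 bases. The mean share in organoids was 45.2% ± 15 for Hbegf and 34.8% ± 16.7 for Areg (SD, n = 2), a difference within the spread of the pair. The smallest p that an exact two-sided permutation test of 2 libraries against 2 can give is 0.333, so the shares were not tested.

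**Figure D2:**
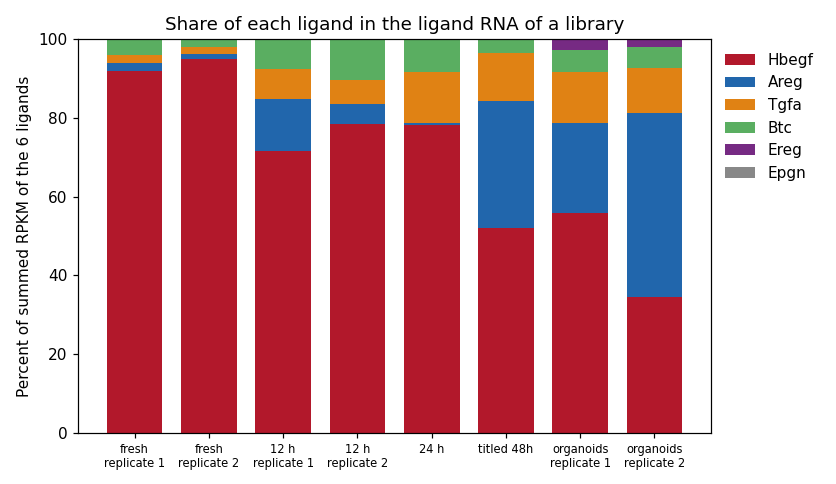
Percent of the summed RPKM of the 6 ligands held by each ligand, 1 bar per library from fresh cells to organoids. Hbegf fills 91.8% and 94.9% of the fresh bars, and Areg is the largest part, at 46.5%, in organoid replicate 2.

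Second place differed between libraries, also between the 12 h replicates. Btc was second in both fresh libraries, with 4.14% and 2.06%, and in 12 h replicate 2, with 10.5%, while Areg was second in 12 h replicate 1, with 13.1%. Tgfa was second at 24 h, with 12.9%. In the 48h-titled library Areg was second, with 32.2%, and the ratio of Hbegf to Areg was 1.62, against 43.7 and 76.7 in the fresh libraries. At 24 h that ratio was 169, the highest of the series. The ratio of Hbegf to Tgfa was 47.4 and 53.1 in fresh cells, 9.36 and 12.9 at 12 h, 6.07 at 24 h, 4.24 in the 48h-titled library and 4.37 and 3.06 in the organoids. The summed ligand RNA was 109 ± 52.8 RPKM in organoids and 755 ± 164 RPKM in fresh cells (SD, n = 2 each). Without Hbegf the sum was 31.5 and 95.4 RPKM in organoids, on either side of the 52.2 and 44.4 RPKM in fresh cells.

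Errfi1, the feedback inhibitor, had the largest fall of the 9 members tested at 12 h on the log2 scale. In the lone 24 h library it stood above its 12 h level. That library had the fewest genes detected, and its part in this value was not tested. Its level was 528 and 963 RPKM in fresh cells, 70.0 and 76.9 RPKM at 12 h, 231 RPKM at 24 h, 90.1 RPKM in the 48h-titled library and 28.4 and 54.8 RPKM in the organoids. The groups with replicates did not overlap. Errfi1 fell at 12 h to 73.4 ± 4.86 RPKM, against 745 ± 308 RPKM in fresh cells, a log2 change of −3.26 (SE 0.46, 95% interval −4.35 to −2.17; limma adjusted p = 0.0252). In organoids it fell to 41.6 ± 18.7 RPKM, 17.9-fold below fresh cells (log2 change −4.14, SE 0.46, 95% interval −5.23 to −3.05; adjusted p = 0.00921). Between organoids and 12 h cultures the log2 change of −0.88 did not pass (SE 0.46, 95% interval −1.97 to 0.21; adjusted p = 0.351).

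The 12 h call of Errfi1 ended without fresh replicate 1 (adjusted p = 0.114), fresh replicate 2 (0.175), 12 h replicate 1 (0.0692) or 12 h replicate 2 (0.0621), and when no filter on low genes was used (0.0661). The call in organoids ended without fresh replicate 1 (0.0751), fresh replicate 2 (0.0959) or organoid replicate 1 (0.0512). The ratio of Errfi1 to Hbegf RNA was 0.899 and 1.16 in fresh cells, 0.372 and 0.354 at 12 h, 1.45 at 24 h, 0.956 in the 48h-titled library and 0.714 and 1.09 in the organoids. Both 12 h libraries were below all others in this ratio. Across the 8 libraries Errfi1 and Hbegf had a Pearson r of 0.90 on the log2 scale, given as a description over libraries that share time points.

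The receptors were below Hbegf in every library, and the changes of the 3 members passed in no comparison. Egfr was at 10.6 and 8.27 RPKM in fresh cells, 17.0 and 3.64 RPKM at 12 h, 7.83 RPKM at 24 h, 8.63 RPKM in the 48h-titled library and 2.52 and 9.30 RPKM in the organoids. The 12 h pair spans the values of all other libraries except organoid replicate 1. The log2 change between organoids and fresh cells was −0.78 (SE 0.79, 95% interval −2.67 to 1.10; limma adjusted p = 0.55).

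Erbb2 was at 6.08 and 5.95 RPKM in fresh cells, 17.5 and 7.45 RPKM at 12 h, 12.2 RPKM at 24 h, 6.61 RPKM in the 48h-titled library and 9.67 and 21.3 RPKM in the organoids. All 6 cultured libraries were above both fresh ones. The log2 change was 1.14 between organoids and fresh cells (SE 0.56, 95% interval −0.20 to 2.48; limma adjusted p = 0.231) and 0.83 between 12 h and fresh cells (SE 0.56, 95% interval −0.51 to 2.18; adjusted p = 0.391).

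Erbb3 was at 13.2 and 10.5 RPKM in fresh cells, 11.8 and 4.41 RPKM at 12 h, 0.693 RPKM at 24 h, 5.13 RPKM in the 48h-titled library and 12.2 and 12.3 RPKM in the organoids. Organoid and fresh values overlapped, with a log2 change of 0.06 (SE 0.52, 95% interval −1.19 to 1.31; limma adjusted p = 0.953). The 24 h value rests on 80 reads. Like that of Areg it is the lowest of the series, in the library with the fewest genes detected, and the part of that library in both values was not tested.

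The order of the receptors differed between fresh and cultured cells. In both fresh libraries Erbb3 was highest, then Egfr, then Erbb2, and the levels of Erbb3 and Egfr touched (10.5 to 13.2 against 8.27 to 10.6 RPKM). Erbb2 was highest in both 12 h libraries, at 24 h and in organoid replicate 2, Egfr in the 48h-titled library and Erbb3 in organoid replicate 1. The ratio of Erbb2 to Erbb3, which no scaling of a library can change, was 1.49 and 1.69 at 12 h, 17.7 at 24 h, 1.29 in the 48h-titled library and 0.791 and 1.73 in the organoids, against 0.462 and 0.568 in fresh cells. All 6 cultured libraries were above both fresh ones. Mien1, on the other strand, shares 9 exon bases with Erbb2.

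Erbb4, the receptor outside the 10 members, was read at 3.10 and 2.74 RPKM in fresh cells, from 585 and 963 reads. In culture it had 7 and 0 reads at 12 h, 4 at 24 h, 28 in the 48h-titled library (0.104 RPKM) and 0 in both organoid libraries. Organoids were at least 198-fold lower than fresh cells, against a floor of 3 reads per library. It fell at 12 h (limma adjusted p = 0.026) and in organoids (0.0147), though it met the filter only through the fresh cells. The 12 h call ended without any 1 of the 4 libraries compared (adjusted p between 0.0517 and 0.0769), and the organoid call without fresh replicate 1 (0.0662), fresh replicate 2 (0.050) or organoid replicate 1 (0.0512). The ductal, hepatocyte, mesothelial, mesenchymal and endothelial marker sums given above were also lower in all 6 cultured libraries than in both fresh ones. The part of these cells in the fall was not tested.

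**Figure D3:**
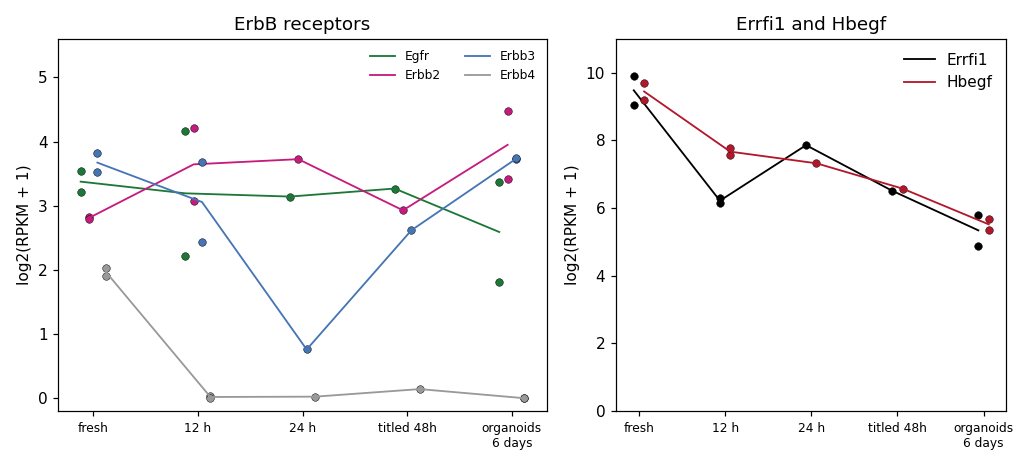
Left, RNA of the 4 ErbB receptors, and right, of Errfi1 and Hbegf, as log2(RPKM + 1) by library from fresh cells to organoids. Points are libraries and lines join group means, with Erbb4 near 0 in all cultured libraries and Errfi1 at 231 RPKM at 24 h between 12 h values of 70.0 and 76.9 RPKM and 90.1 RPKM in the 48h-titled library.

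Of the 10 members 9 met the filter of at least 1 RPKM in at least 2 libraries. At 12 h 2 of them were called, both lower, where 6.81% of the 12900 genes tested were called with 3.09% called higher and 3.72% lower. In organoids against fresh cells 3 were called, Hbegf and Errfi1 lower and Ereg higher, where 10.1% of all genes were called, 5.15% higher and 4.94% lower. In organoids against 12 h cultures 2 were called, Hbegf lower and Ereg higher, where 2.0% were called, 1.38% higher and 0.620% lower. Ereg, counted in both comparisons of organoids, met the filter only through the organoids, where it is high. With so few members these counts say little beyond the genes themselves. The median log2 change over the 9 was −0.05, −0.16 and −0.55 in the same order, beside 0.24, 0.17 and −0.09 over all genes. Values did not overlap between groups in 5, 6 and 6 of the 9 members, where 62.2%, 64.7% and 44.9% of all genes did not overlap. Centring the libraries on their medians moved the median of all genes at 12 h to −0.09 and the log2 changes of Hbegf and Errfi1 to −2.11 and −3.59. It also moved the split of all calls from 398 higher and 480 lower to 322 and 806 at 12 h, and from 664 and 637 to 548 and 825 in organoids.

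**Figure D4:**
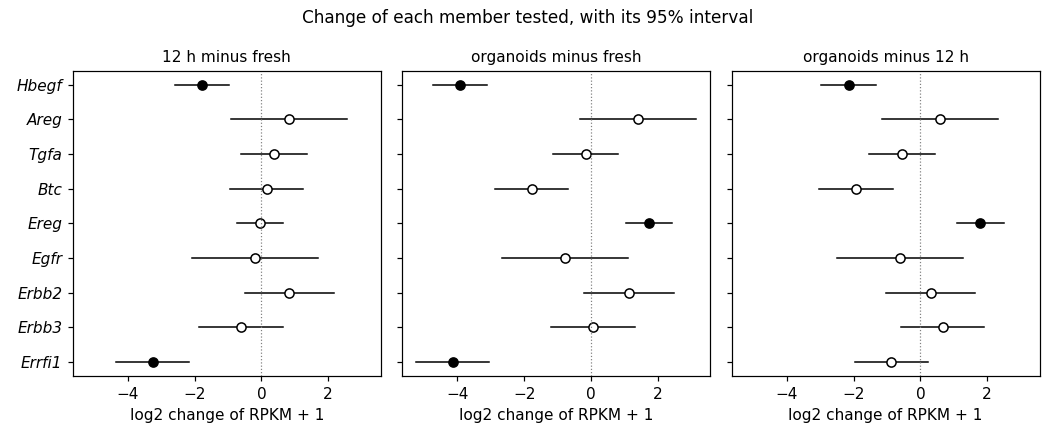
Log2 change of RPKM + 1 for the 9 members tested, in 12 h cultures minus fresh cells, organoids minus fresh cells and organoids minus 12 h cultures. Points are fitted changes, bars their 95% intervals and filled points an adjusted p under 0.05, which only Hbegf, Ereg and Errfi1 reach.

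The proteins that release the ligands were followed in a list of 12 genes, of which 10 were tested. In organoids against fresh cells 0 of the 10 passed in limma, with 1 at an unadjusted p under 0.05, and at 12 h 1 was lower. Adam17, the main sheddase of Areg, Hbegf and Tgfa precursors, was at 8.24 and 13.9 RPKM in organoids, against 4.95 and 5.62 RPKM in fresh cells (limma adjusted p = 0.24). Adam10, which releases Btc, was at 42.2 and 32.0 RPKM in organoids, against 34.6 and 16.8 RPKM in fresh cells (adjusted p = 0.41). The iRhom genes Rhbdf1 and Rhbdf2, whose products carry ADAM17 to the cell surface, were at 11.7 and 35.7 RPKM and at 9.85 and 22.3 RPKM in organoids, against 40.2 and 64.8 RPKM and 42.6 and 56.6 RPKM in fresh cells (adjusted p = 0.192 and 0.09).

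The gene of that list that passed was Timp3, a secreted inhibitor of ADAM17. It fell at 12 h, to 2.90 and 0.0339 RPKM, against 23.1 and 25.5 RPKM in fresh cells (log2 change −3.65, SE 0.65; limma adjusted p = 0.0337). It was at 14.4 RPKM at 24 h, 3.79 RPKM in the 48h-titled library and 30.0 and 23.1 RPKM in the organoids, where it was higher than at 12 h (log2 change 3.77, SE 0.65; adjusted p = 0.0449). Leaving out any 1 of the 6 replicated libraries ended both calls, with adjusted p between 0.0539 and 0.28 for the first and between 0.0539 and 0.222 for the second. Both also ended with a pseudocount of 0.1 RPKM (0.0703 and 0.0975), with no filter (0.0937 and 0.159) and with only the groups compared (0.0601 and 0.21).

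Of 16 genes of receptor turnover and inhibition 15 were tested. At 12 h 0 passed in limma, with 1 at an unadjusted p under 0.05, and in organoids against fresh cells 1 did, Sh3kbp1, an adaptor of CBL in receptor endocytosis. It was at 5.96 and 2.46 RPKM in organoids, against 0.221 and 0.108 RPKM in fresh cells (log2 change 2.08, SE 0.43; limma adjusted p = 0.0341). It was at 2.58 RPKM at 24 h and under 1 RPKM in the other 5 libraries, so it met the filter through the organoids, where it is high. That call ended without fresh replicate 1 (0.207), fresh replicate 2 (0.266) or organoid replicate 1 (0.0618), with libraries centred on their medians (0.0708) and with no filter (0.102). All 26 adaptors and kinases were tested, with 1 higher and 1 lower at 12 h and 1 lower in organoids. Stat3, a transcription factor downstream of cytokine and ErbB receptors, fell to 18.6 and 11.2 RPKM at 12 h and to 9.85 and 9.35 RPKM in organoids, against 54.8 and 57.8 RPKM in fresh cells (adjusted p = 0.0404 and 0.0177). Pik3r2, a regulatory subunit of PI3K, rose to 29.7 and 20.4 RPKM at 12 h, against 5.10 and 3.95 RPKM in fresh cells (log2 change 2.22, SE 0.48; adjusted p = 0.0461). It was at 23.2 RPKM in the 48h-titled library and at 14.3 and 29.25 RPKM in organoids. Its change between organoids and fresh cells missed the threshold (log2 change 1.97, SE 0.48; limma adjusted p = 0.0502). At 24 h it was at 0.274 RPKM, below both fresh libraries. The call of Pik3r2 ended with no filter (0.0968), without a trend (0.0536) and with the replicate block (0.0554), and that of Stat3 at 12 h with no filter (0.0694) and without a trend (0.0524). At 12 h both calls ended without either fresh library or either 12 h library, with adjusted p between 0.0659 and 0.342, and in organoids that of Stat3 without either fresh library or organoid replicate 1 (0.0614 to 0.19).

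Among 10 ERK feedback genes 0 passed in limma at 12 h, with 2 at an unadjusted p under 0.05, and in organoids 1 was higher and 1 lower than in fresh cells. Etv4, an ETS factor induced by ERK, rose to 6.78 and 17.2 RPKM in organoids, against 1.29 and 1.19 RPKM in fresh cells (log2 change 2.41, SE 0.53; limma adjusted p = 0.0399). At 12 h Etv4 was already at 8.04 and 12.5 RPKM, where it missed the threshold (log2 change 2.30; limma adjusted p = 0.0527). It was at 9.41 RPKM at 24 h and 30.5 RPKM in the 48h-titled library. Dusp5, a phosphatase of nuclear ERK, fell to 1.87 and 15.1 RPKM in organoids, against 100 and 199 RPKM in fresh cells (log2 change −4.39, SE 0.80; adjusted p = 0.0243). At 12 h Dusp5 was at 35.9 and 30.8 RPKM, a change that did not pass (log2 change −2.05; limma adjusted p = 0.159). Leaving out either fresh library or organoid replicate 1 ended both calls (0.056 to 0.303), and leaving out organoid replicate 2 ended that of Etv4 (0.0724). Both ended with no filter (0.0953 for Etv4 and 0.0979 for Dusp5). Dusp6, a phosphatase of cytoplasmic ERK, was at 54.8 and 58.3 RPKM in organoids and 60.0 and 80.6 RPKM in fresh cells (adjusted p = 0.593). Over all 70 genes of the 5 pathway lists 63 were tested, and 4, 5 and 1 passed in the 3 comparisons, or 6.35%, 7.94% and 1.59%, shares near those over all genes. Among these calls are those of Erbb4 and Sh3kbp1, which met the filter through the group where they are high.

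Of the other ligands of the family, Egf had 8 reads in organoid replicate 1, 15 in fresh replicate 2 and at most 1 in each other library. Nrg1, a ligand of Erbb3 and Erbb4, was between 0 and 1.67 RPKM, with at most 443 reads. Nrg2 was at 2.13 RPKM at 24 h, from 128 reads, and at 0.375 RPKM or less in the other 7 libraries. Nrg3 had 1 read in all. Nrg4 was at 1.17 and 0.513 RPKM in organoids, against 0.227 and 0.214 RPKM in fresh cells. Adding Egf and the 4 neuregulins to the ligand sum moved the share of Hbegf to 44.1% in organoids, 74.8% at 12 h and 93.2% in fresh cells.

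For each member with a mean of at least 5 RPKM, the genes closest to it by Pearson r of log2(RPKM + 1) over the 8 libraries were picked from 7117 genes, as a description. Hbegf was most like Tmem184a (r = 0.99), F3, which encodes tissue factor (0.99), and Dnajb1, a heat shock cochaperone (0.98). Errfi1 was closest to Fosl2, an AP-1 factor (0.98), Tmem251 (0.98) and Tollip (0.97), and Areg to Rflnb (0.98), Pml (0.97) and Pole3 (0.97). Btc was closest to Elovl7, which lengthens fatty acids (0.97), Efhd2 (0.96) and Rnf11 (0.96). Among the genes closest to Tgfa were Emc1 (0.98) and Abcf1 (0.97). Egfr was closest to Ildr1, a protein of tricellular junctions (0.97), Tmem214 (0.94) and Nckap1 (0.94). Erbb2 was closest to Lamb3, a laminin chain (0.97), Golph3l (0.94) and Slc29a4 (0.94), and Erbb3 to Cdc42ep2, an effector of CDC42 (0.96), Arfgap3 (0.96) and Klc4 (0.96).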

How the data were processed

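Per the labels' protocols, libraries were prepared from RNA of sorted cells with Smart-seq2 and Nextera XT. The authors deposited 1 table of RPKM values for 47729 genes and 8 libraries. GRCm38 and edgeR are named in the submitters' processing notes, with no role. The aligner, counter, annotation release, strandedness and filters are not stated in the labels or the file header. Symbols came from GENCODE M21, which named 47224 identifiers.

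Effective reads per library were estimated as the depth at which values of under 10 reads are whole multiples of 1 read in the annotated exon length. Between 88.6% and 92.2% of them then were, within 0.01. Reads given for a gene rest on this estimate, and limits from 3 reads cover counting error only, since PCR copies of a molecule can be counted more than once.

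The 12900 genes that reached 1 RPKM in 2 or more libraries were fitted together as log2(RPKM + 1) with limma 3.58.1 in R 4.3.3, with 1 coefficient for each of the 5 groups and eBayes with trend. The fit had 3 residual and 3.65 prior degrees of freedom. Each comparison's two-sided p-values were adjusted by Benjamini-Hochberg over all its genes, at a threshold of 0.05. A change on this scale understates that of low genes. The lone 24 h library and that titled 48h enter with values only. The fit was tested on simulated data. The named genes are the 10 members, list genes that passed (up to 3 per list and comparison, or all where 5 or fewer did) and the 3 closest genes per member by correlation, of which 1 is not reported here. Adam10, Adam17, Rhbdf1, Rhbdf2, Dusp6, Egf, Nrg1, Nrg2, Nrg3 and Nrg4 were picked by role after their values were seen. The members and lists were chosen with earlier results of these data known. Alternatives were another pseudocount, other filters, median centring, quantile normalization, only the groups compared, no trend, a replicate block and leaving out each replicated library.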

Additional observations from a re-analysis of the deposited data

How the results depend on the processing

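With 2 libraries a group at most, outlying libraries were not looked for, and the calls rest on few degrees of freedom. Leaving out 1 library left between 0 and 2 members called at 12 h against fresh cells, between 0 and 3 in organoids against fresh cells and between 0 and 1 in organoids against 12 h cultures, with 2 to 3, 3 to 6 and 3 to 5 members at an unadjusted p under 0.05. In 3, 2 and 5 of the 6 fits per comparison 0 of all 12900 genes were called, so counts of 0 there are those of the whole table. Without a filter 0 members were called at 12 h and 0 between organoids and 12 h (2 and 3 at an unadjusted p under 0.05), where 1.58% and 0% of all 26693 genes were called. Without a trend 1 was called at 12 h and 0 between organoids and 12 h. Organoids against 12 h also had 0 with only those groups fitted (3 at an unadjusted p under 0.05 in both settings), where 0% of all genes were called with only those groups and 1.76% without a trend, and 1 at a mean of at least 5 RPKM. The count between organoids and fresh cells was 3 or 4 under the settings that keep all libraries, though at a mean of at least 5 RPKM Ereg was not tested and Btc passed.

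The replicate numbers name no shared animal or day, and deviations of same-numbered libraries correlated by 0.19, 0.22 and 0.02. With the replicate number as a block, 2 members were called at 12 h, 3 in organoids against fresh cells and 1 between organoids and 12 h cultures.

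Changes that turned sign under a scaling were all uncalled. At 12 h Btc became −0.18 with centring and −0.20 with quantile normalization, and Ereg 0.083 with the second. Erbb3 in organoids against fresh cells became −0.078 and −0.10. Leaving out 1 library turned the sign of 8 uncalled changes. Their ranges were, at 12 h, −0.12 to 0.42 for Btc, −1.16 to 0.80 for Egfr and −1.23 to 0.0059 for Erbb3. In organoids against fresh cells they were −0.092 to 0.21 for Erbb3 and −0.56 to 0.24 for Tgfa. Between organoids and 12 h cultures they were −0.41 to 1.58 for Areg, −1.58 to 0.37 for Egfr and −0.26 to 0.87 for Erbb2. The 17 calls of members and list genes kept their direction in the 13 or 14 alternatives that gave each a value. Shares of Hbegf without either replicate were between 34.6% and 55.8% in organoids, 71.5% and 78.4% at 12 h and 91.8% and 94.9% in fresh cells. Those of Areg were between 23.0% and 46.5% in organoids, 5.03% and 13.1% at 12 h and 1.24% and 2.10% in fresh cells.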
